A study of Mus musculus with 18 samples.

Results

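The bone morphogenetic protein (BMP) and transforming growth factor beta (TGF-beta) family was followed here through its ligands and receptors in 3 mouse fat depots. The members were the rows of the gene count table whose symbol names a BMP, a growth differentiation factor (GDF), a TGF-beta, an activin or inhibin subunit, or one of their type I, type II or type III receptors. The rule found 42 rows of 54347, under 41 symbols, because Gdf1 stands on 2 rows. Of the 42 rows, 34 held enough counts to be tested and 8 did not. PolyA RNA was sequenced from interscapular brown fat (iBAT), inguinal white fat (iWAT) and epididymal white fat (eWAT) of 12-week-old C57BL/6N mice fed chow. In each depot there were 3 wild type (wt) mice and 3 knockout (ko) mice whose genome lacks exon 1 of the lncRNA gene Gm15551, deleted with CRISPR/Cas9 and backcrossed to wild type. The same 6 mice gave all 3 depots, so the 18 libraries form 6 groups of 3.

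Ligands of this family are secreted dimers. A ligand brings together type II receptors, which are active kinases, and type I receptors, which the type II receptors phosphorylate and which in turn phosphorylate SMAD proteins that enter the nucleus. BMPs act mainly through SMAD1 and SMAD5, TGF-betas and activins mainly through SMAD2 and SMAD3, and the GDFs differ among themselves in the SMADs they use. In fat, BMP4 and BMP7 are known for driving precursor cells towards adipocytes, BMP8B for raising the response of brown fat to sympathetic stimulation, and TGF-betas for restraining adipogenesis and promoting matrix deposition.

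Promoters of 4 members are shown, namely a pair of neighbouring BMP8 paralogs whose levels ran in opposite directions between depots, the activin subunit that differed most between brown and white fat, and the type II receptor that was most abundant in iBAT. Each window covers 250 bases before the transcript start to 50 bases after it, from RefSeq on GRCm38.p6, written on the strand of the gene. On the same build, in GENCODE M21, the genes span chr4:123105165-123132099 (Bmp8b, plus strand), chr4:123312645-123343252 (Bmp8a, minus), chr1:119415465-119422248 (Inhbb, minus) and chr9:116084293-116175360 (Tgfbr2, minus). Capitals mark matches, on either strand, to the GC box (GGGCGG), the CCAAT box (CCAAT), the TATA box (TATAAA), the cAMP response element (TGACGTCA), the GC-rich SMAD motif (GGCGCC) or the SMAD palindrome (GTCTAGAC).
Bmp8b, chr4:123104911-123105210, plus strand: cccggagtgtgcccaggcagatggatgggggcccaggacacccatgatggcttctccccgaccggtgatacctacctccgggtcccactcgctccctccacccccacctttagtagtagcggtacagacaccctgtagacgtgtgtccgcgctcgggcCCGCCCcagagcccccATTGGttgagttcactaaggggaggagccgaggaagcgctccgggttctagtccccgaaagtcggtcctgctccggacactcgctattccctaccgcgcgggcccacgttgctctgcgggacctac
Bmp8a, chr4:123343203-123343502, minus strand: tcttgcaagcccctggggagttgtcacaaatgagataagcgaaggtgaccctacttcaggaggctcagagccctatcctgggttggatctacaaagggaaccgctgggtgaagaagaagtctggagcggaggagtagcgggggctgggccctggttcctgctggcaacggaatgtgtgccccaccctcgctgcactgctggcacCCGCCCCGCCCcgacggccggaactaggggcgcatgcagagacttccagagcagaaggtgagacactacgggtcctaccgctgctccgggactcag
Inhbb, chr1:119422199-119422498, minus strand: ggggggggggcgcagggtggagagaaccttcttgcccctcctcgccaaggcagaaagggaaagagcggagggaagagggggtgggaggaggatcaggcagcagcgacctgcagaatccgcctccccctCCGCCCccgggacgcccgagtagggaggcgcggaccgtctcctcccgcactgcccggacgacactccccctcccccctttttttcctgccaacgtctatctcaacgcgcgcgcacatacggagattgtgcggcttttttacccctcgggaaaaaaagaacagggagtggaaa
Tgfbr2, chr9:116175314-116175613, minus strand: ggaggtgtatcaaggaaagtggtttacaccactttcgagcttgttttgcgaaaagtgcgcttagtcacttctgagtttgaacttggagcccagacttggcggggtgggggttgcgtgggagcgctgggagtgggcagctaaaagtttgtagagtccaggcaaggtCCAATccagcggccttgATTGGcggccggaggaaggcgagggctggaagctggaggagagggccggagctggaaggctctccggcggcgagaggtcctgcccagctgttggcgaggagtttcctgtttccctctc

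The Bmp8b window held 1 GC box and 1 CCAAT box, the Bmp8a window 2 overlapping GC boxes, the Inhbb window 1 GC box, and the Tgfbr2 window 2 CCAAT boxes. Across the 32851 windows of the promoter table, 35.7% held a GC box, 37.4% a CCAAT box, 13.6% a TATA box, 11.9% the GC-rich SMAD motif, 1.79% the cAMP response element and 0.213% the SMAD palindrome. The table had 36 windows for 30 of the member symbols, of which 19 held a GC box, 13 a CCAAT box, 6 a TATA box, 6 the GC-rich SMAD motif, and none the cAMP response element or the SMAD palindrome. Their median GC content was 59.2%, against 52.7% over all windows.

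Library totals (all 18 libraries) ran from 14997901 to 34389586 counts. Gm15551 was counted 40 to 316 times in the wild type libraries and 0 to 4 times in the knockout libraries, as labelled. Levels are given in CPM, counts scaled to a common library size, after trimmed mean of M values (TMM) scaling, whose factors were 0.617 to 0.744 in iBAT, 1.06 to 1.44 in iWAT and from 1.15 to 1.39 in eWAT. The summed level of 4 brown adipocyte markers was 5798 to 10949 CPM in iBAT, 11.1 to 194 in iWAT and from 1.68 to 5.53 in eWAT. In 4 libraries another tissue's markers stood far above the remaining libraries of that depot, namely lymphocyte markers in iWAT wt 3 (685 CPM) and ko 2 (296 CPM), skeletal muscle markers in iWAT ko 1 (3739 CPM) and epididymis and testis markers in eWAT ko 3 (4874 CPM). For a number of results the values without these 4 libraries are given as well, and the part of the other tissues' RNA was not tested.

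Receptors made up most of the upper end of the family when levels were compared between genes per exonic length, in TPM (length-corrected levels scaled to a common total in each library). In iBAT the highest median was that of Tgfbr2, the type II receptor for TGF-beta, with 30.4 to 48.8 (median 40.7) TPM over the 6 libraries. Bmp6, a BMP ligand also known for signalling iron status, came second with 15.0 to 36.1 (median 23.0) TPM. Tgfbr3, the type III receptor betaglycan that presents ligand, came next with 9.38 to 21.3 (median 17.2) TPM. The ranges of Tgfbr2 and Bmp6 overlapped, as did those of Bmp6 and Tgfbr3. These ranges run over libraries, and genes were not compared within a library, so the overlap does not decide whether neighbours differed.

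In iWAT the order began with Tgfbr2 (52.7 TPM, median), Tgfbr3 (50.7), Inhbb (41.7), Acvr1c (35.7) and Acvrl1 (35.5). In eWAT it began with Tgfbr3 (67.9 TPM, median), Acvr1c (52.8), Acvrl1 (48.6), Tgfbr2 (45.9), Gdf10 (40.3) and Bmp6 (39.9). In both white depots the ranges of each neighbouring pair among these overlapped. The ligand with the highest median was Bmp6 in iBAT, Inhbb (the beta B subunit of activin B) in iWAT and Gdf10 (also called BMP3B) in eWAT, although in both white depots its range overlapped those of other ligands. Among members that passed the filter, Bmp8a, Bmp8b, Gdf15, Gdf6, Bmpr1b and the tested Gdf1 row had medians under 1 TPM in all 3 depots.

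**Figure D1:**
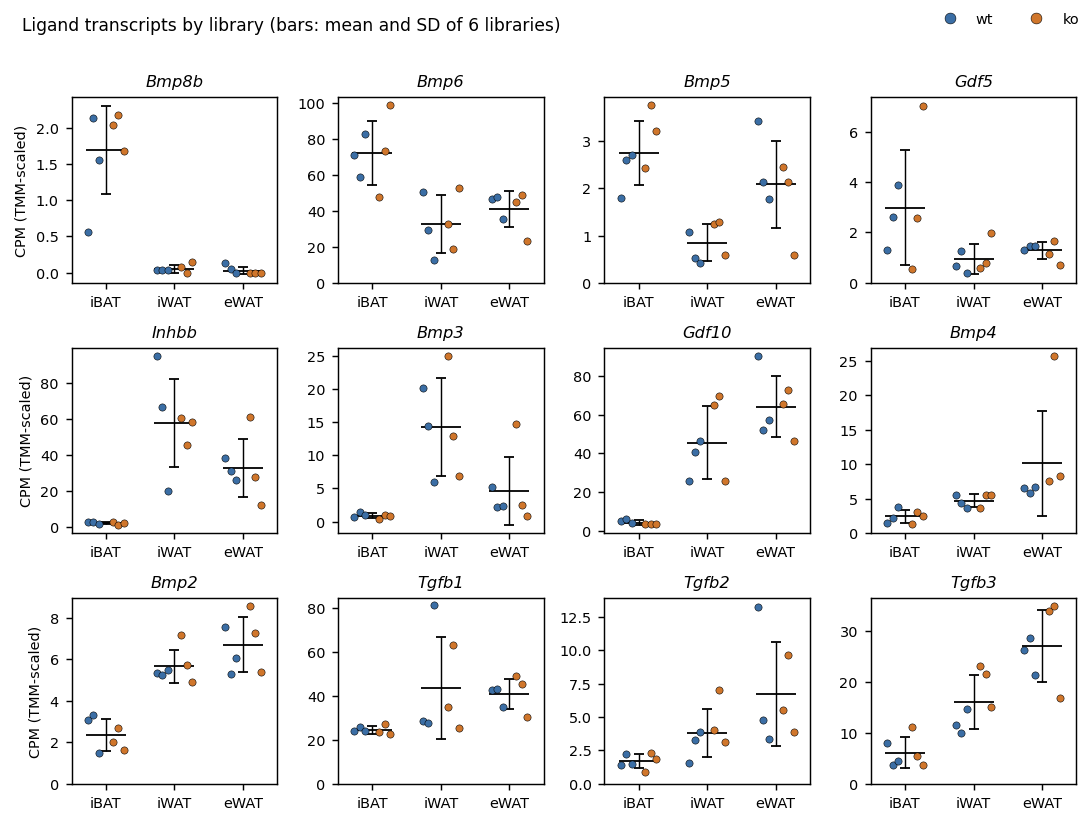
Level of 12 ligand genes in each library, as TMM-scaled CPM (y axes differ and start at or below 0), by depot (x axis), with wild type in blue and knockout in orange. Horizontal bars are means and vertical bars SDs of the 6 libraries of a depot. Bmp8b stood above 0.5 CPM in the 6 iBAT libraries and below 0.15 CPM elsewhere, while Inhbb, Gdf10 and Bmp2 were lowest in the 6 iBAT libraries.

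The first question was how the family differs between brown and white fat. Against iWAT, 24 of the 34 tested members passed an adjusted p of 0.05 in edgeR, where 54.3% of all 18728 tested genes did. Of these, 5 were higher in iBAT (24.0% of all genes) and 19 lower (30.3%), and the median log2 fold change was -0.77 over the members and -0.14 over all genes. Against eWAT, 24 of 34 passed (54.6% of all genes), 3 higher in iBAT (24.4%) and 21 lower (30.2%), with medians of -0.98 and -0.17. Both comparisons share the iBAT libraries. In bulk samples, fewer cells of a type and less RNA per cell cannot be told apart.

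Directions between iBAT and the white depots rest on the scaling. With library totals alone, a choice added after the data were seen, the median of all genes moved to -0.95 against iWAT and -1.04 against eWAT, and the split of all calls moved from 4490 higher and 5674 lower to 1438 and 12804 against iWAT, and from 4565 and 5655 to 1579 and 13159 against eWAT. Of the members, 2 were then called higher and 28 lower against iWAT, and 1 higher and 28 lower against eWAT. With the size factors of DESeq2 the medians of all genes were -0.13 and -0.16, no member lost a call, and Gdf5 passed against eWAT as well (1.20, edgeR adjusted p = 0.0480). Values in the following paragraphs are TMM-scaled unless said otherwise.

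**Figure D2:**
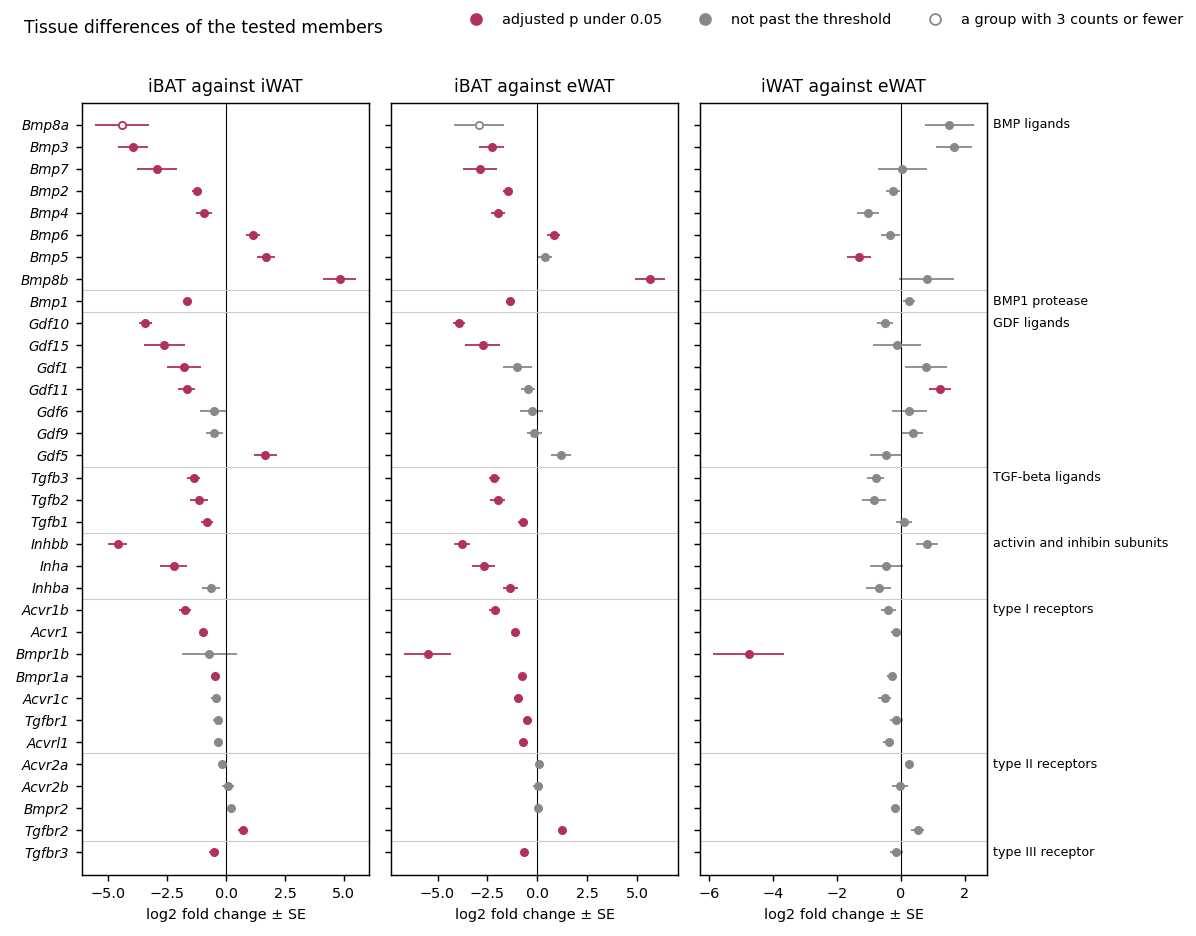
Log2 fold change with its standard error (x axes, which differ between panels) of the 34 tested members (rows, grouped by role) in the 3 depot comparisons. Red marks an edgeR adjusted p under 0.05 over all 18728 genes and open circles mark a depot with 3 counts or fewer. Most red points lie left of 0 in the iBAT panels, Bmp8b lies furthest to the right, and 3 points are red between iWAT and eWAT, with 9 values turning sign under library totals (Tgfbr2 against iWAT, Bmp5, Bmp6 and Acvr2a against eWAT, Acvr2b and Bmpr2 in both, and Bmp7 between the white depots).

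Among the BMP ligands, Bmp8b was the one with the largest difference towards brown fat. It was counted 9 to 33 times per library in iBAT, 0 to 4 times in iWAT and from 0 to 3 times in eWAT. This is 0.557 to 2.18 (median 1.85) CPM in iBAT against at most 0.147 CPM in iWAT and 0.132 CPM in eWAT, without overlap. The log2 fold change was 4.82 ± 0.69 (SE) against iWAT (edgeR adjusted p = 2.10e-05) and 5.63 ± 0.76 against eWAT (edgeR adjusted p = 9.48e-06). Since eWAT held 4 counts in all, the ratio of summed counts there, 61.5, has a 95% interval of 23.5 to 229 (exact, counting error only). Bmp8b shares 7.29% of its 31-base words with its paralog Bmp8a, and its exons overlap those of Ppie and Gm17244 on the opposite strand, so a part of its few counts may not be its own.

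Its paralog Bmp8a, which lies on the same chromosome on the opposite strand, was seen as 1 count in the 6 iBAT libraries together. In iWAT it was counted 2 to 23 times per library and in eWAT 0 to 10 times. The ratio of iWAT to iBAT was 30.9 with a 95% interval of 5.33 to 1240.4 (exact, counting error only), with an edgeR adjusted p of 0.00352. Against eWAT the ratio was 10.2 with an interval of 1.59 to 425, and the edgeR adjusted p of 0.0575 did not pass. The paralogs thus lay on opposite sides between iBAT and iWAT. Most Bmp8a counts came from the 4 libraries that stand apart, with 23 in iWAT wt 3, 12 in ko 1 and 11 in ko 2 against 2 to 5 in the other 3, and 10 in eWAT ko 3 against 0 to 4 in the other 5. Without these libraries Bmp8a was below the count filter and was not tested.

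Bmp6 was 47.7 to 98.6 (median 72.2) CPM in iBAT, 12.4 to 52.8 (median 31) in iWAT and from 23.1 to 48.7 (median 45.8) in eWAT, with overlapping ranges in both comparisons. It was higher in iBAT by 1.14 ± 0.31 on the log2 scale against iWAT (edgeR adjusted p = 0.00467) and by 0.81 ± 0.30 against eWAT (edgeR adjusted p = 0.0321), although library totals gave 0.39 and -0.03, neither called and the second of opposite sign. Relative to the median of all genes under that scaling, these are 1.34 and 1.01. Without the 4 libraries both passed, at 0.69 against iWAT and 0.67 against eWAT (edgeR adjusted p = 0.0196 and 0.00640), while the difference from eWAT missed the threshold without ko 2 (0.86, edgeR adjusted p = 0.0521), ko 3 (0.57, edgeR adjusted p = 0.114) or wt 1 (0.85, edgeR adjusted p = 0.0531). The exons of Bmp6 overlap those of Txndc5 on the opposite strand.

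Bmp5, a BMP of skeletal development, was 1.80 to 3.76 (median 2.65) CPM in iBAT, 0.429 to 1.28 (median 0.829) in iWAT and from 0.594 to 3.43 (median 2.13) in eWAT. The iBAT range lay wholly above that of iWAT, with a log2 difference of 1.69 ± 0.37 (edgeR adjusted p = 0.00107), and overlapped that of eWAT (0.37 ± 0.36, edgeR adjusted p = 0.400). Exons of Bmp5 overlap those of the antisense gene Gm26903, and whether counting used strand is not given in the sources used here.

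Bmp4, Bmp2 and Bmp7 passed as lower in iBAT than in both white depots. Bmp4 was 1.41 to 3.81 (median 2.42) CPM in iBAT, 3.63 to 5.60 (median 4.97) in iWAT and from 5.87 to 25.6 (median 7.11) in eWAT, and the eWAT range lay above both others. Bmp2, a close relative of Bmp4, was 1.49 to 3.31 (median 2.37) CPM in iBAT, 4.92 to 7.19 (median 5.42) in iWAT and from 5.29 to 8.58 (median 6.68) in eWAT, and the iBAT range lay below both others. Bmp7, known for promoting brown adipogenesis, was 0.124 to 1.23 (median 0.290) CPM in iBAT, 1.72 to 8.004 (median 2.46) in iWAT and from 0.395 to 9.67 (median 1.20) in eWAT. Its iBAT range lay below that of iWAT and overlapped that of eWAT.
The log2 fold changes against iWAT and eWAT were -0.94 ± 0.35 and -1.97 ± 0.36 for Bmp4 (edgeR adjusted p = 0.0296 and 0.000185). For Bmp2 they were -1.25 ± 0.22 and -1.49 ± 0.22 (edgeR adjusted p = 0.000136 and 2.04e-05), the smallest adjusted p of the 3 genes in each comparison. For Bmp7 they were -2.93 ± 0.85 and -2.88 ± 0.84 (edgeR adjusted p = 0.00805 and 0.00825). All 3 genes passed in both comparisons, but some calls of Bmp4 and Bmp7 were lost when the 4 libraries or 1 mouse (all its libraries) were left out. Without the 4 libraries Bmp7 missed the threshold against iWAT (-1.99, edgeR adjusted p = 0.0855), and with the mouse as a block against eWAT (-2.46, edgeR adjusted p = 0.05001). Without wt 1 it missed it against eWAT (-1.61, edgeR adjusted p = 0.138). Bmp4 missed it against iWAT when wt 1 (-0.75, edgeR adjusted p = 0.130), wt 2 (-0.93, edgeR adjusted p = 0.0760) or ko 3 (-0.91, edgeR adjusted p = 0.0734) was left out.

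Bmp3, an atypical BMP that antagonises others, was 0.391 to 1.49 (median 0.935) CPM in iBAT, 6.03 to 24.9 (median 13.7) in iWAT and from 0.792 to 14.7 (median 2.46) in eWAT. The iBAT range lay below that of iWAT, while in eWAT the upper end was set by ko 1, with the next library at 5.19 CPM. The log2 fold change was -3.94 ± 0.63 against iWAT and -2.30 ± 0.61 against eWAT (edgeR adjusted p = 6.48e-05 and 0.00416), the latter -1.32 without ko 1 (edgeR adjusted p = 0.0233). Bmp1, a protease that trims procollagen and frees ligands from their antagonists and is no ligand itself, was 22.6 to 29.7 (median 23.4) CPM in iBAT, 60.6 to 119 (median 63.2) in iWAT and from 42.9 to 76.3 (median 71.3) in eWAT. The iBAT range lay below both others, with log2 fold changes of -1.66 ± 0.19 and -1.39 ± 0.19 (edgeR adjusted p = 2.31e-06 and 1.13e-05).

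Of the 7 tested GDF rows, 1 was higher and 4 lower in iBAT than in iWAT, and 2 were lower than in eWAT, where 54.3% and 54.6% of all genes passed. Gdf10, known for restraining adipogenesis, was 3.21 to 6.16 (median 3.65) CPM in iBAT, 25.8 to 69.6 (median 43.4) in iWAT and from 46.5 to 90.1 (median 61.3) in eWAT. The iBAT libraries were all far below the white ones, and the log2 fold change was -3.43 ± 0.29 against iWAT and -3.92 ± 0.29 against eWAT (edgeR adjusted p = 6.11e-08 and 1.01e-08). Without the 4 libraries the first was -2.83 (edgeR adjusted p = 1.59e-07). Beside this difference, the summed level of 5 adipocyte progenitor markers was 103 to 146 CPM in iBAT, 269.6 to 912 in iWAT and from 211 to 289 in eWAT, and its part in the difference was not tested.

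Gdf5, a factor of joint development that is also linked to brown adipogenesis, was 0.548 to 7.02 (median 2.57) CPM in iBAT, 0.396 to 1.98 (median 0.710) in iWAT and from 0.693 to 1.65 (median 1.39) in eWAT, with overlap throughout. It was higher in iBAT than in iWAT by 1.66 ± 0.50 (edgeR adjusted p = 0.00990), a call lost without the 4 libraries (1.16, edgeR adjusted p = 0.119), without wt 3 (1.39, edgeR adjusted p = 0.0575) and under library totals (0.93, edgeR adjusted p = 0.1). Against eWAT the difference was 1.18 ± 0.50 (edgeR adjusted p = 0.0530). Its exons overlap those of an antisense gene, Gm15557.

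Gdf15, a stress-induced hormone that acts through a receptor in the hindbrain, was counted 0 to 4 times per library in iBAT, 8 to 56 in iWAT and from 3 to 91 in eWAT. In CPM the ranges overlapped, and the log2 fold change was -2.62 ± 0.87 against iWAT and -2.75 ± 0.87 against eWAT (edgeR adjusted p = 0.0175 and 0.0138). Without the 4 libraries these were -1.44 and -1.66 (edgeR adjusted p = 0.126 and 0.0440). The iWAT call was also lost without ko 2 (-2.45, edgeR adjusted p = 0.0602) or wt 3 (-2.14, edgeR adjusted p = 0.0738), and the eWAT call without ko 3 (-1.44, edgeR adjusted p = 0.111).

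Gdf11, a circulating relative of myostatin, was 1.41 to 2.85 (median 1.74) CPM in iBAT, 2.75 to 12.1 (median 4.19) in iWAT and from 1.99 to 3.32 (median 2.54) in eWAT. Its log2 fold change was -1.68 ± 0.36 against iWAT (edgeR adjusted p = 0.000890), or -0.72 without the 4 libraries (edgeR adjusted p = 0.0267), and -0.46 ± 0.36 against eWAT (edgeR adjusted p = 0.294). The tested row with the symbol Gdf1 carries the identifier of Cers1, a ceramide synthase, in GENCODE M21, and shares 42.0% of its 31-base words with the second Gdf1 row. It was 0 to 0.470 CPM in iBAT and 0.367 to 1.74 in iWAT, differed by -1.78 ± 0.72 (edgeR adjusted p = 0.0458), and cannot be assigned to either gene. That call was lost in 8 alternatives, with an edgeR adjusted p from 0.0549 to 0.185. Gdf6 and Gdf9, factors of joint and ovary, passed in neither comparison, with log2 fold changes of -0.54 ± 0.57 and -0.51 ± 0.35 against iWAT and -0.28 ± 0.57 and -0.15 ± 0.36 against eWAT.

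All 3 TGF-beta ligands were lower in iBAT than in either white depot. Tgfb1, the isoform of immune and stromal cells, was 22.9 to 27.4 (median 24.0) CPM in iBAT, 25.4 to 81.5 (median 31.7) in iWAT and from 30.4 to 49.1 (median 42.9) in eWAT. Tgfb2 was 0.861 to 2.33 (median 1.68) CPM in iBAT, 1.56 to 7.01 (median 3.59) in iWAT and from 3.36 to 13.3 (median 5.15) in eWAT. Tgfb3 was 3.63 to 11.2 (median 4.90) CPM in iBAT, 9.99 to 23.1 (median 14.9) in iWAT and from 16.7 to 34.7 (median 27.4) in eWAT. For each isoform the iBAT range lay below that of eWAT and overlapped that of iWAT.
The log2 fold changes against iWAT were -0.82 ± 0.25, -1.15 ± 0.39 and -1.37 ± 0.27 for Tgfb1, Tgfb2 and Tgfb3 (edgeR adjusted p = 0.0112, 0.0199 and 0.000474). Against eWAT they were -0.74 ± 0.25, -1.99 ± 0.39 and -2.16 ± 0.28 (edgeR adjusted p = 0.0203, 0.000420 and 5.40e-06). Tgfb3 had the smallest p in both comparisons. The Tgfb1 calls, and that of Tgfb2 against iWAT, were lost when single mice were left out. The Tgfb1 difference from iWAT was -0.16 without the 4 libraries (edgeR adjusted p = 0.209) and -0.53 without wt 3 (edgeR adjusted p = 0.0634). That from eWAT missed the threshold without ko 1 (-0.67, edgeR adjusted p = 0.0759). Tgfb2 against iWAT missed it without the 4 libraries (-0.67, edgeR adjusted p = 0.223) and without ko 1, ko 2 or wt 3 (edgeR adjusted p = 0.0723, 0.0518 and 0.0526). The summed level of 5 macrophage markers was 27.2 to 64.0 CPM in iBAT, 127 to 579.7 in iWAT and from 65.1 to 223 in eWAT, and its part in these differences was not tested.

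Of the activin and inhibin subunits, Inhbb, which pairs with itself to make activin B, had the lowest log2 fold change of all members against iWAT. It was 1.28 to 2.98 (median 2.59) CPM in iBAT, 19.98 to 94.8 (median 59.6) in iWAT and from 12.2 to 60.9 (median 29.4) in eWAT. No iBAT library reached a white one, and the log2 fold change was -4.61 ± 0.41 against iWAT and -3.79 ± 0.40 against eWAT (edgeR adjusted p = 1.13e-07 and 5.42e-07). Inha, the alpha subunit that turns activins into inhibins, was 0.186 to 0.601 CPM in iBAT (3 to 8 counts), 0.844 to 2.44 in iWAT and from 0.728 to 8.76 in eWAT, again without overlap. Its log2 fold changes were -2.23 ± 0.56 and -2.69 ± 0.57 (edgeR adjusted p = 0.00312 and 0.000758), and -1.81 and -1.84 without the 4 libraries (edgeR adjusted p = 0.00270 and 0.000851). Inhba, the beta A subunit, was 0.324 to 1.57 CPM in iBAT, 1.39 to 1.98 in iWAT and from 1.09 to 5.41 in eWAT. It passed against eWAT (-1.35 ± 0.39, edgeR adjusted p = 0.008003) and not against iWAT (-0.64 ± 0.39, edgeR adjusted p = 0.175). Without ko 2 it also missed against eWAT (-1.05, edgeR adjusted p = 0.0589).

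**Figure D3:**
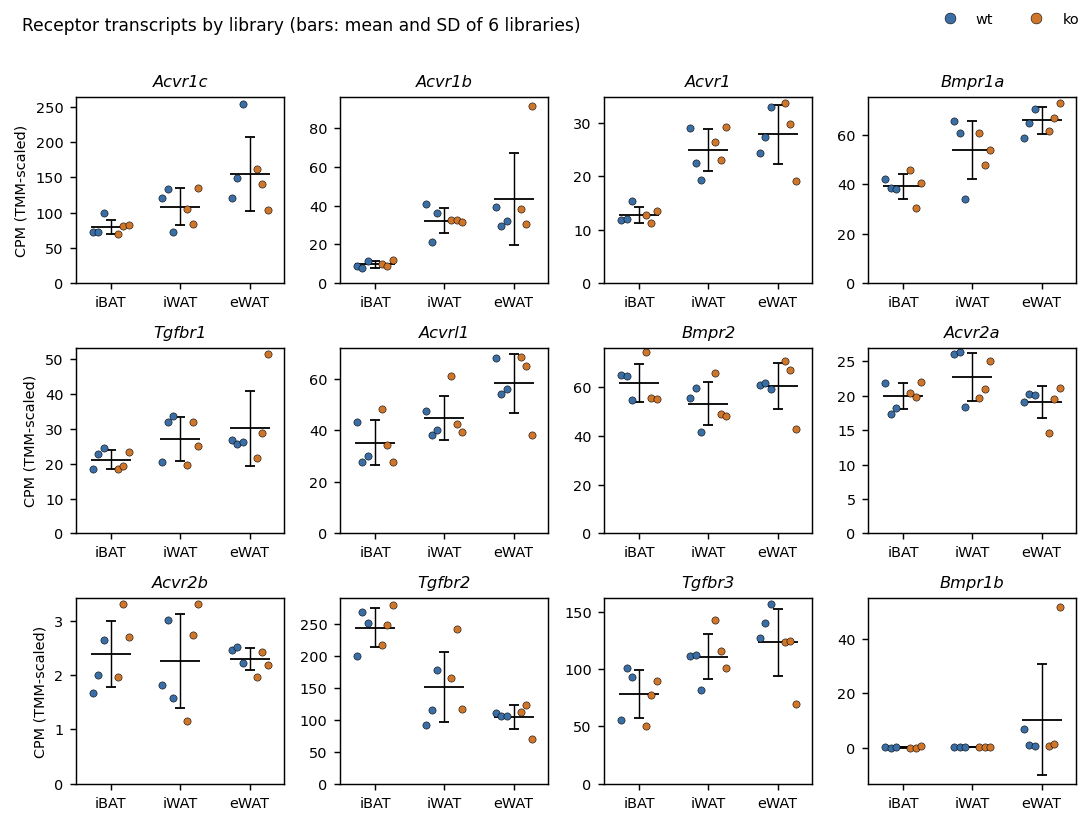
Level of the 12 receptor genes in each library, as TMM-scaled CPM (y axes differ and start at or below 0), by depot (x axis), with wild type in blue and knockout in orange. Horizontal bars are means and vertical bars SDs of the 6 libraries of a depot. Acvr1b and Acvr1 were lower in the 6 iBAT libraries than in any white library, Tgfbr2 had its highest median in iBAT (a direction that turns against iWAT under library totals), and Bmpr1b was high in 1 eWAT library.

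All 7 type I receptors passed as lower in iBAT than in eWAT, and 3 of 7 did against iWAT, where 30.2% and 30.3% of all genes passed as lower. Of the 4 type II receptors, 1 passed, Tgfbr2, and it was higher in iBAT in both comparisons, with the sign against iWAT turning under library totals. The median log2 fold change was -0.46 and -0.96 over the type I receptors, against iWAT and eWAT, and 0.14 and 0.05 over the type II receptors. The difference between the classes was not tested, and under library totals the other 3 type II receptors were also called lower in iBAT in both comparisons. The summed level of 5 adipocyte markers was 14269 to 18380 (median 15583) CPM in iBAT, 14810 to 34584 (median 26556) in iWAT and from 13302 to 32683 (median 26608) in eWAT. Its part in the receptor differences was not tested.

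Acvr1b (ALK4), the activin receptor, was 7.58 to 11.9 (median 9.17) CPM in iBAT, 21.2 to 40.6 (median 32.4) in iWAT and from 29.2 to 91.7 (median 34.9) in eWAT. Acvr1 (ALK2), a BMP and activin receptor, was 11.2 to 15.4 (median 12.4) CPM in iBAT, 19.4 to 29.3 (median 24.8) in iWAT and from 19.1 to 33.7 (median 28.7) in eWAT. For both genes the iBAT range lay below both white ranges. The log2 fold changes of Acvr1b were -1.75 ± 0.25 and -2.15 ± 0.25 (edgeR adjusted p = 1.94e-05 and 1.97e-06), and -1.70 and -1.82 without the 4 libraries. Those of Acvr1 were -0.96 ± 0.14 and -1.12 ± 0.14 (edgeR adjusted p = 3.20e-05 and 5.09e-06).

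Bmpr1a (ALK3), the main type I receptor for BMP2 and BMP4, was 30.4 to 45.8 (median 39.4) CPM in iBAT, 33.9 to 65.8 (median 57.2) in iWAT and from 58.7 to 73.0 (median 65.7) in eWAT. Acvr1c (ALK7), the receptor that holds back lipolysis in adipocytes, was 70.1 to 98.7 (median 77.1) CPM in iBAT, 71.9 to 135 (median 113) in iWAT and from 103 to 254 (median 145) in eWAT. Both ran below eWAT without overlap and overlapped iWAT. For Bmpr1a the log2 fold changes were -0.46 ± 0.14 and -0.75 ± 0.14 (edgeR adjusted p = 0.00930 and 0.000200), the first lost without wt 2 (-0.40, edgeR adjusted p = 0.0547). For Acvr1c they were -0.45 ± 0.20 and -0.96 ± 0.20 (edgeR adjusted p = 0.0646 and 0.000621), the first passing without the 4 libraries (-0.70, edgeR adjusted p = 0.00671).

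Acvrl1 (ALK1), the endothelial receptor for BMP9 and BMP10, was 27.6 to 48.1 (median 32.2) CPM in iBAT, 38.2 to 60.9 (median 41.3) in iWAT and from 38.2 to 68.5 (median 60.3) in eWAT, with overlap. It passed against eWAT (-0.73 ± 0.17, edgeR adjusted p = 0.00186) and missed against iWAT (-0.35 ± 0.17, edgeR adjusted p = 0.0988), a comparison it passed with the mouse as a block (-0.36, edgeR adjusted p = 0.00397). The summed level of 5 endothelial markers was 763 to 905 CPM in iBAT, 495 to 765 in iWAT and from 417 to 897 in eWAT, and its part in these values was not tested. Tgfbr1 (ALK5), the TGF-beta receptor, was 18.4 to 24.4 CPM in iBAT, 19.6 to 33.8 in iWAT and from 21.7 to 51.6 in eWAT. Its log2 fold change was -0.36 ± 0.20 against iWAT (edgeR adjusted p = 0.131) and -0.51 ± 0.20 against eWAT (edgeR adjusted p = 0.0380). The eWAT call was lost without the 4 libraries (-0.29, edgeR adjusted p = 0.0564) and without ko 2, ko 3, wt 1 or wt 2 (edgeR adjusted p from 0.0607 to 0.0970).

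Bmpr1b (ALK6), a BMP receptor of cartilage and reproductive tissue, was counted 0 to 8 times per library in iBAT, 5 to 11 in iWAT and from 11 to 1048 in eWAT. The eWAT maximum was ko 3, the library with epididymis and testis markers, at 51.9 CPM, and the next was wt 1 at 6.86 CPM, which was second in those markers at 19.9 CPM. Its log2 fold change against eWAT was -5.49 ± 1.18 (edgeR adjusted p = 0.000879), and -3.31 without the 4 libraries (edgeR adjusted p = 0.00376). Against iWAT it was -0.71 ± 1.18 (edgeR adjusted p = 0.634).

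Tgfbr2 was 199.7 to 279.7 (median 250.2) CPM in iBAT, 91.9 to 243 (median 142) in iWAT and from 69.3 to 122.9 (median 109) in eWAT. The iBAT range lay above that of eWAT and overlapped that of iWAT, where 1 library with lymphocyte markers, ko 2, reached 243 CPM. The log2 fold change was 0.70 ± 0.20 against iWAT (edgeR adjusted p = 0.00685), 1.15 without the 4 libraries (edgeR adjusted p = 2.72e-06) and -0.14 under library totals (edgeR adjusted p = 0.585), which is 0.82 relative to the median of all genes. Against eWAT it was 1.22 ± 0.20 (edgeR adjusted p = 6.67e-05), and 0.37 under library totals (edgeR adjusted p = 0.146), which is 1.41 relative to that median.

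The other type II receptors passed in neither comparison. Bmpr2, the BMP type II receptor, was 54.9 to 74.5 CPM in iBAT, 41.5 to 65.7 in iWAT and from 43.0 to 70.7 in eWAT. Acvr2a, an activin type II receptor, was 17.3 to 21.95, 18.4 to 26.4 and 14.5 to 21.1 CPM, and Acvr2b, its paralog, 1.67 to 3.31, 1.16 to 3.30 and 1.97 to 2.52 CPM. The log2 fold changes against iWAT and eWAT were 0.21 ± 0.13 and 0.03 ± 0.13 for Bmpr2, -0.19 ± 0.12 and 0.06 ± 0.12 for Acvr2a, and 0.07 ± 0.25 and 0.04 ± 0.25 for Acvr2b, none past the threshold, although Bmpr2 passed against iWAT with the mouse as a block (0.22, edgeR adjusted p = 0.0457) and Acvr2a without the 4 libraries (-0.37, edgeR adjusted p = 0.0145). Under library totals these 3 genes were lower in iBAT and called in both comparisons, from -0.99 (Acvr2a against iWAT) to -0.59 (Bmpr2 against iWAT). Tgfbr3 was 50.1 to 101 CPM in iBAT, 81.9 to 142 in iWAT and from 69.7 to 156 in eWAT, with log2 fold changes of -0.52 ± 0.20 and -0.66 ± 0.20 (edgeR adjusted p = 0.0355 and 0.00949). The first call was lost with the mouse as a block (edgeR adjusted p = 0.0511), without the 4 libraries (-0.45, edgeR adjusted p = 0.0562) and without ko 1, ko 2, wt 1 or wt 2 (edgeR adjusted p from 0.0511 to 0.205).

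Between the white depots 3 of 34 members passed, a share near the 10.2% of all genes. At an unadjusted p under 0.05 there were 13 members (38.2%), and 25.5% of all genes. Of the 3, Gdf11 was higher in iWAT (5.70% of all genes were) and Bmp5 and Bmpr1b were lower (4.50%). Gdf11 differed by 1.23 ± 0.35 (edgeR adjusted p = 0.0369), Bmp5 by -1.32 ± 0.37 (edgeR adjusted p = 0.0334) and Bmpr1b by -4.78 ± 1.11 (edgeR adjusted p = 0.0126). The median log2 fold change was -0.15 over the members and 0.01 over all genes. With the mouse as a block 5 members passed (9.25% of all genes did), 2 of them among these 3, and Gdf11 did not (1.09, edgeR adjusted p = 0.0890).

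**Figure D4:**
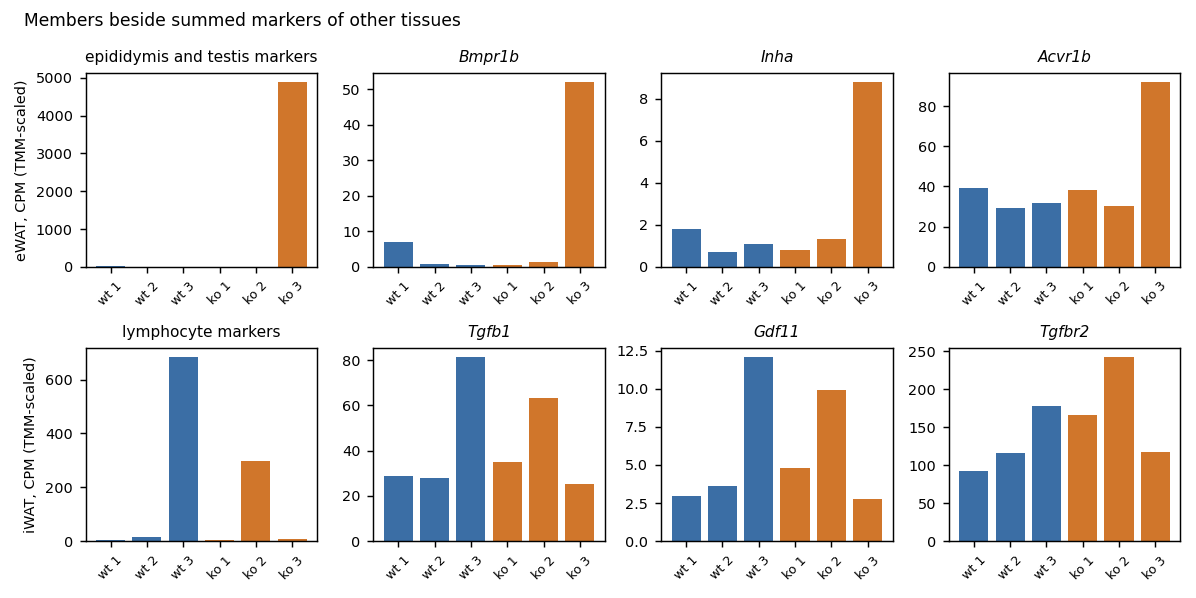
Summed CPM of epididymis and testis markers beside Bmpr1b, Inha and Acvr1b in the 6 eWAT libraries (upper row), and of lymphocyte markers beside Tgfb1, Gdf11 and Tgfbr2 in the 6 iWAT libraries (lower row). Bars are single libraries, blue wild type and orange knockout, on linear axes from 0. The library with the most epididymis and testis markers, ko 3, was highest for all 3 genes above, and the 2 libraries with the most lymphocyte markers, wt 3 and ko 2, were highest for all 3 genes below. The genes drawn are a selection of members, so this match is no test. Tgfbr2 and Tgfbr3, not drawn in the upper row, were lowest in eWAT ko 3.

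Several of these values moved with the libraries that stand apart. Gdf11 was 12.1 CPM in iWAT wt 3 and 9.92 in ko 2, the 2 libraries with lymphocyte markers, and 2.75 to 4.79 CPM in the other 4. Tgfb1 was 81.5 and 63.2 CPM in these 2 libraries and 25.4 to 34.8 in the other 4. Gdf3, a GDF of early embryos and of fat macrophages that was too low to be tested, had 39 counts in iWAT wt 3 and 47 in ko 2 and at most 7 elsewhere. In eWAT ko 3, Inha was 8.76 CPM (next 1.80), Acvr1b 91.7 (next 39.2) and Tgfbr1 51.6 (next 28.9), while Tgfbr2 and Tgfbr3 were lowest there. Whether these markers' tissues gave the reads was not tested.

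Without the 4 libraries, 6 of 33 tested members passed between iWAT and eWAT, beside 10.2% of all genes in the same fit. Of the 6, Bmp5 (-1.70, edgeR adjusted p = 0.00571) was among the 3 named. Gdf11 was 0.34 (edgeR adjusted p = 0.451) and Bmpr1b -2.89 (edgeR adjusted p = 0.0793). The other 5 were Tgfb1 (-0.66, edgeR adjusted p = 0.00131), Tgfb3 (-1.22, edgeR adjusted p = 0.0158) and Gdf10 (-1.17, edgeR adjusted p = 0.00349), lower in iWAT, and Inhbb (1.001, edgeR adjusted p = 0.0284) and Acvr2a (0.47, edgeR adjusted p = 0.0194), higher. Gdf11 also missed the threshold when any of ko 1, ko 2, wt 1, wt 2 or wt 3 was left out (0.84 to 1.35) and under library totals (1.23, edgeR adjusted p = 0.0611), Bmp5 without the same mice (-1.43 to -1.19), and Bmpr1b without wt 1 (-4.60, edgeR adjusted p = 0.0662). Without ko 3, Bmpr1b was -2.75 (edgeR adjusted p = 0.0255).

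The 8 rows below the filter were Bmp10, Bmp15, Gdf2 (BMP9), Gdf3, Gdf7, Inhbc, Inhbe and the second Gdf1 row. Inhbc had no count in any library. The highest count in a library was 2 for Bmp10, 3 for Gdf7, 6 for Bmp15, 10 for Inhbe and for the second Gdf1 row, 12 for Gdf2 and 47 for Gdf3. Bmp10 and Gdf2, the ligands of Acvrl1, are made chiefly in heart and liver, and Bmp15 in oocytes. With no filter on low counts Gdf3 passed as lower in iBAT than in iWAT (-3.68, edgeR adjusted p = 0.0104) and as higher in iWAT than in eWAT (3.46, edgeR adjusted p = 0.0438), with 39 and 47 counts in the iWAT libraries with lymphocyte markers, wt 3 and ko 2, and 0 to 7 in the others.

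Of 85 other genes of the pathway, listed by role, 82 were in the table and 68 were tested. Against iWAT, 10 passed as higher and 33 as lower in iBAT, and against eWAT 12 and 34, with medians of -0.61 and -0.47. Of all tested genes, 24.0% passed as higher and 30.3% as lower against iWAT, and 24.4% and 30.2% against eWAT. Under library totals the counts were 2 and 55, and 3 and 51, beside 7.68% and 68.4%, and 8.43% and 70.3%, of all genes. The genes named in the next paragraphs are among the 4 of each list with the smallest p in any depot comparison.

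The extracellular antagonists, most of which bind ligands outside the cell, were the longest list, with 17 tested, and had the most members that passed. Against iWAT 12 passed as lower and 2 as higher in iBAT (30.3% and 24.0% of all genes). Against eWAT 12 passed as lower and 3 as higher (30.2% and 24.4%). Chordin (Chrd), which traps BMP2, BMP4 and BMP7, was -3.45 ± 0.24 against iWAT and -3.53 ± 0.24 against eWAT (edgeR adjusted p = 7.99e-09 and 3.61e-09). Its relative Chrdl1 was -3.84 ± 0.35 and -4.56 ± 0.36 (edgeR adjusted p = 1.60e-07 and 2.15e-08), and Bmper, which can hinder or help BMPs, -1.45 ± 0.25 and -2.83 ± 0.26 (edgeR adjusted p = 0.000126 and 1.10e-07). Bmper also differed between the white depots, by -1.37 ± 0.24 (edgeR adjusted p = 0.00188).

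Of 13 genes of TGF-beta latency and activation, 8 passed as lower and 2 as higher in iBAT in each comparison. Of all tested genes, 30.3% passed as lower and 24.0% as higher against iWAT, and 30.2% and 24.4% against eWAT. Ltbp1, which anchors latent TGF-beta in the matrix, was -1.92 ± 0.16 and -2.42 ± 0.17 (edgeR adjusted p = 6.57e-08 and 3.76e-09), and the activator thrombospondin 1 (Thbs1) -1.71 ± 0.31 and -2.86 ± 0.32 (edgeR adjusted p = 0.000185 and 9.22e-07). Ltbp2, which does not bind latent TGF-beta, was higher by 2.20 ± 0.19 and 2.81 ± 0.19 (edgeR adjusted p = 7.09e-08 and 4.06e-09), and the proprotein convertase Furin by 0.87 ± 0.13 and 0.72 ± 0.13 (edgeR adjusted p = 3.12e-05 and 0.000176), the latter -0.17 under library totals.

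Of the 8 SMADs, 4 passed in each comparison, 3 lower and 1 higher in iBAT, a share below the 54.3% and 54.6% of all genes. Smad1 was -0.76 ± 0.11 and -1.20 ± 0.11, Smad3 -0.90 ± 0.16 and -0.42 ± 0.15, and Smad5 -0.33 ± 0.09 and -0.28 ± 0.09 (largest edgeR adjusted p = 0.0300, for Smad3 against eWAT). Smad6, an inhibitory SMAD of the BMP branch, was 0.82 ± 0.26 and 0.87 ± 0.26 (edgeR adjusted p = 0.0134 and 0.00911), or 0.05 and 0.03 under library totals, neither called, and 0.43 against iWAT without the 4 libraries (edgeR adjusted p = 0.0974). None of 3 co-receptors passed, among them endoglin (Eng, 0.20 ± 0.17 and 0.09 ± 0.17, but -0.61 and -0.77 and called lower under library totals) and Rgmb (-0.03 ± 0.15 and -0.37 ± 0.15, the second at an edgeR adjusted p of 0.0503). Of 12 intracellular modulators, 4 passed as higher and 4 as lower in each comparison. Of all genes, 24.0% and 30.3% did so against iWAT, and 24.4% and 30.2% against eWAT. Examples are Strap (0.71 ± 0.08 against iWAT, but -0.09 under library totals) and Ski (-0.69 ± 0.12). Of 12 targets, 1 was higher and 5 lower against iWAT and 2 and 5 against eWAT, where 24.0% and 30.3%, and 24.4% and 30.2%, of all genes passed as higher and lower. Tgfbi was -2.36 ± 0.40 and -1.41 ± 0.39 (edgeR adjusted p = 0.000113 and 0.00585), and -1.27 against iWAT without the 4 libraries (edgeR adjusted p = 0.000151). Ccn2 was -1.31 ± 0.39 and -2.90 ± 0.41 (edgeR adjusted p = 0.00980 and 1.51e-05), whereas Postn was lower than in iWAT (-1.03 ± 0.25, edgeR adjusted p = 0.00233) and higher than in eWAT (0.96 ± 0.25, edgeR adjusted p = 0.00390). Msx1, a homeobox target of BMPs, was -1.40 ± 0.24 against iWAT (edgeR adjusted p = 0.000140), 0.24 ± 0.24 against eWAT (edgeR adjusted p = 0.423, and -0.60 under library totals) and 1.64 ± 0.24 between iWAT and eWAT (edgeR adjusted p = 0.000417).

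Of 3 tested ligands and receptors outside the rule, 1 passed against iWAT and 2 against eWAT, all lower in iBAT, as 30.3% and 30.2% of all genes were. Lefty1, an inhibitor of Nodal signalling, was -2.33 ± 0.42 and -1.49 ± 0.43 (edgeR adjusted p = 0.000218 and 0.00715), and -1.73 against iWAT without the 4 libraries (edgeR adjusted p = 0.00726). Amhr2, the anti-Mullerian hormone receptor, was -0.82 ± 0.41 and -2.61 ± 0.42 (edgeR adjusted p = 0.106 and 6.10e-05). Its ligand Amh was 0.62 ± 0.75 and 1.22 ± 0.79 (edgeR adjusted p = 0.508 and 0.205), with the first value at -0.25 under library totals and 1.60 without the 4 libraries (edgeR adjusted p = 0.254).

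The second question was whether loss of Gm15551 moved the family. No member passed in edgeR across tissues (0.00534% of all genes did), in iBAT (0% of all genes), in iWAT (0%), in eWAT (0.00534%) or in the interaction of genotype and tissue (0%), and none did in DESeq2. At an unadjusted p under 0.05 there were 0 members across tissues, 0 in iBAT, 1 in iWAT, 3 in eWAT and 1 in the interaction. Of all 18728 tested genes, 2.19%, 1.27%, 2.22% and 4.35% were at such a p in the first 4 of these, and 264 genes in the interaction. Across tissues the members' log2 fold changes ran from -0.58 to 1.26 with a median of 0.13. Receptors with high counts had smaller SEs, such as Tgfbr2 at 0.14 ± 0.16, Tgfbr3 at -0.13 ± 0.16, Acvr1c at -0.15 ± 0.16 and Bmpr1a at 0.02 ± 0.11, while Bmpr1b was at 1.26 ± 0.92. The fit across tissues took the libraries of a mouse as independent, so these SEs may understate the spread between mice.

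**Figure D5:**
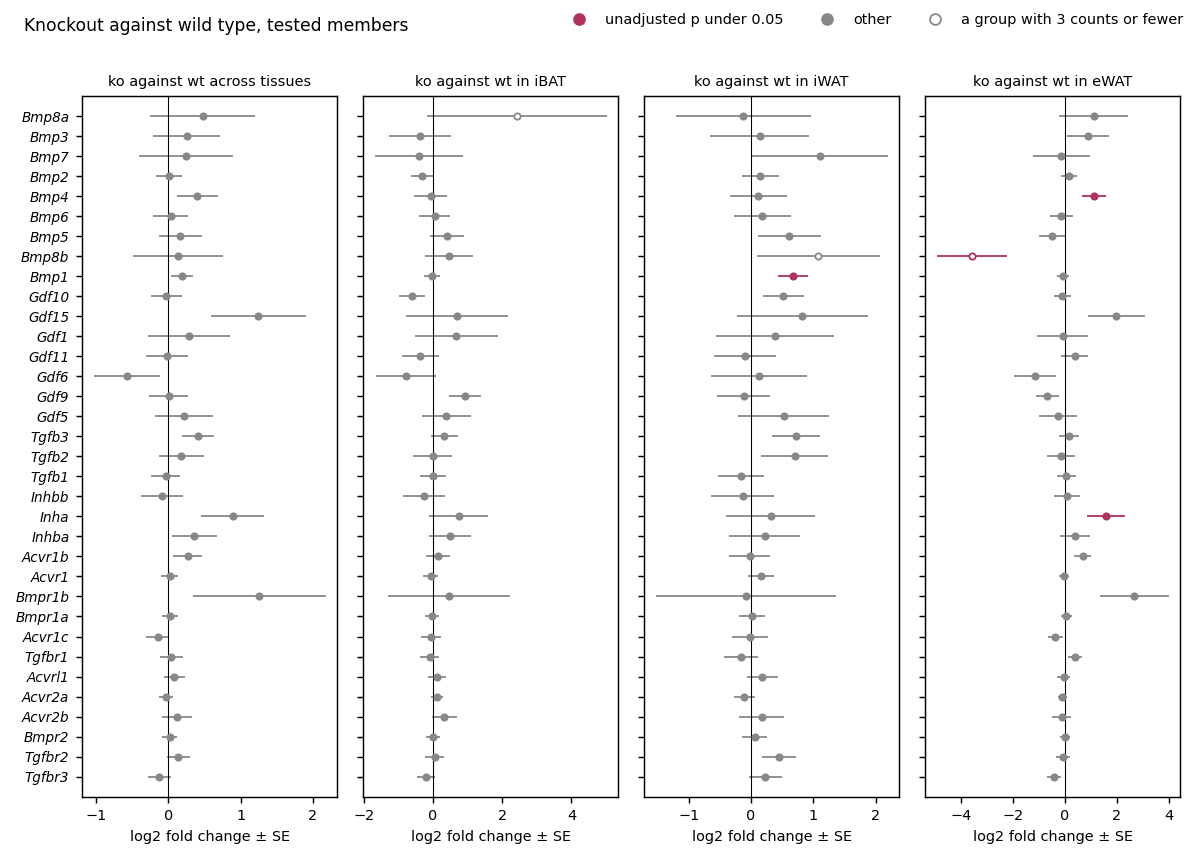
Log2 fold change of knockout against wild type with its standard error (x axes, which differ between panels) for the 34 tested members (rows), across tissues and within each depot. Red marks an unadjusted p under 0.05 in edgeR and open circles mark a group with 3 counts or fewer. No member passed after adjustment over all 18728 genes, and 4 points are red, 1 in iWAT and 3 in eWAT.

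The 4 values at an unadjusted p under 0.05 were as follows. Bmp1 in iWAT was 64.1, 61.7 and 60.6 CPM in wild type and 119, 116 and 62.3 CPM in knockout libraries 1, 2 and 3. The 2 high values belong to the libraries with muscle (ko 1) and lymphocyte (ko 2) markers, in which progenitor markers summed to 912 and 781 CPM, against 269.6 to 420.4 CPM in the other 4, and the part of these markers in the difference was not tested. The log2 fold change was 0.67 ± 0.24 (unadjusted p = 0.0119, edgeR adjusted p = 1), and -0.02 without the 4 libraries, where ko 3 was the only knockout library of iWAT left.

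In eWAT, Bmp4 was 6.59, 5.87 and 6.72 CPM in wild type and 7.51, 25.6 and 8.37 CPM in knockout libraries 1, 2 and 3. A single library, ko 2, stood apart, though all 3 knockout values lay above the wild type values. The same library had the highest sum of smooth muscle and pericyte markers, 1394 CPM against 465 to 874 in the other 5, and the part of these markers in the difference was not tested. The log2 fold change was 1.11 ± 0.46 (unadjusted p = 0.0281, edgeR adjusted p = 1), and 0.30 without ko 2. Inha in eWAT was 1.80, 0.728 and 1.09 CPM in wild type and 0.815, 1.33 and 8.76 CPM in knockout libraries, with a log2 fold change of 1.58 ± 0.73 (unadjusted p = 0.0486, edgeR adjusted p = 1) that became -0.16 without ko 3. Bmp8b in eWAT had 4 counts in wild type and 0 in knockout libraries, for which no fold is given (unadjusted p = 0.0195, edgeR adjusted p = 1). Bmp8b was also the 1 member of the interaction test (unadjusted p = 0.0357, edgeR adjusted p = 1). In iBAT, where it was counted, Bmp8b was 0.557, 2.14 and 1.55 CPM in wild type and 2.04, 2.18 and 1.67 CPM in knockout libraries, a difference of 0.47 ± 0.69 on the log2 scale.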

How the data were processed

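PolyA RNA of 18 libraries was sequenced as paired ends. Per the labels and the study's methods, the authors filtered reads with cutadapt, quantified them with salmon against GENCODE M22, alone or with RNAcentral, on GRCm38, and deposited whole-number counts per gene that are not scaled. Versions, the strand used in counting and how transcripts were summed to genes are not given in the sources used here. Estimated counts can be split between paralogs.

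Genes passing filterByExpr by group (18728 of 54347 rows) were tested with edgeR 4.0.16 in R 4.3.3 (TMM factors, quasi-likelihood F-test, Benjamini-Hochberg adjustment over all tested genes, threshold 0.05). Depot comparisons and the overall genotype effect came from a model of tissue and genotype, the other genotype effects from group means. The SE is the size of the log2 fold change over the square root of F. TPM used merged exon lengths of GENCODE M21. Named genes were the members, and at most 4 genes of each pathway list by smallest p, of which 1 is not reported here. The members and lists were chosen with earlier results of these data known. Scripts were tested on simulated data.

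By the mouse numbers in the labels, same-numbered libraries of a genotype come from 1 mouse. Their deviations from group means correlated from -0.165 to 0.326 (median 0.0573, 18 pairs), so a fit with the mouse as a block was run as an alternative. Other alternatives were DESeq2 1.42.0, its size factors, no count filter, wild type libraries only, leaving out each mouse or the 4 libraries named in the report, and library totals, the latter added after the data were seen. For the genotype effect across tissues, counts summed per mouse were a further alternative. Library totals of 14997901 to 34389586 counts set the precision, and intervals cover counting error only.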

Additional observations from a re-analysis of the deposited data

Results flagged for a closer look

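In each depot, the highest and lowest of the 6 libraries were compared with their nearest neighbour by Dixon's gap over the range at its 95% critical value. Of 102 comparisons of a member in a depot, 15 were past it. Chance passes about 1 in 20 groups (5.1 here) where values are normal and groups independent. Low counts are not normal and the members share libraries, so this rate is no measure of chance here. Library eWAT ko 3, with the epididymis and testis markers, held 8 of the 15. There Bmpr1b (51.9 CPM), Acvr1b (91.7 CPM), Tgfbr1 (51.6 CPM), Inha (8.76 CPM), Gdf15 (4.51 CPM) and Bmp8a (0.495 CPM) were high, and Tgfbr2 (69.3 CPM) and Tgfbr3 (69.7 CPM) low. The part of those markers' tissue in these values was not tested.

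Among the other eWAT libraries, ko 1 was high for Bmp3 (14.7 CPM) and low for Acvr2a (14.5 CPM), ko 2 was high for Bmp4 (25.6 CPM), and wt 1 for Bmp8b (0.132 CPM, 3 counts). In iBAT, ko 1 held the single count of Bmp8a (0.0783 CPM). In iWAT, ko 1, the library with skeletal muscle markers, was high for Bmp2 (7.19 CPM) and for the tested Gdf1 row (1.74 CPM).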

How the results depend on the processing

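Counts of members past the threshold were 24 and 24 for iBAT against iWAT and eWAT, and they ran from 18 to 24 and from 21 to 25 when a mouse or the 4 libraries were left out. Of all genes, 54.3% and 54.6% passed with all libraries, and from 44.5% to 54.6% and from 46.0% to 57.1% in those fits. With wild type libraries alone 14 passed against iWAT (4 higher, 10 lower), all among the 24, beside 37.8% of all genes (17.9% higher, 19.8% lower). Between iWAT and eWAT, where 3 passed, the count was 5 with library totals, 5 with DESeq2, 5 with the mouse as a block, 6 without the 4 libraries, 0 with wild type libraries alone and 1 to 5 when a mouse was left out, so single mice decide it. Of all genes, 11.4% passed there with library totals, 14.4% with DESeq2, 9.25% with the mouse as a block and 10.2% without the 4 libraries. The count of pathway genes there was 17 of 68, against 7 of 65 with wild type libraries alone and 10 to 18 when a mouse was left out, while 10.2% of all genes passed with all libraries, 1.42% with wild type libraries alone and 3.83% to 8.27% when a mouse was left out. Signs of called values turned for Tgfbr2 against iWAT (-0.14) and Bmp6 against eWAT (-0.030) under library totals, where 7 values not called before also turned, 5 of them then called lower in iBAT (Acvr2b and Bmpr2 in both comparisons, Acvr2a against eWAT). Signs also turned for Bmp1 in knockout iWAT (-0.019, with ko 3 as the only knockout library left) and Inha in knockout eWAT (-0.16) without the 4 libraries, and for Inha across left-out mice (-0.16 to 2.04). The mouse as a block ended 4 calls, Tgfbr3 and the Gdf1 row against iWAT (edgeR adjusted p = 0.0511 and 0.0549), Bmp7 against eWAT (0.05001) and Gdf11 between white depots (0.0890). It kept the other 51 named calls or non-calls and added Acvrl1 (-0.36) and Bmpr2 (0.22) against iWAT and Acvrl1 (-0.37), Tgfb3 (-0.77) and Bmp3 (1.89) between white depots. Without a count filter, the Gdf1 row, Bmp6 against eWAT, and Gdf11 and Bmp5 between white depots missed the threshold (edgeR adjusted p = 0.0750, 0.0571, 0.0536 and 0.0566), while Gdf3 passed against iWAT and between white depots. With wild type libraries alone 10 calls against iWAT, 7 against eWAT and 3 between white depots were lost, of which 3, 2 and 0 were of genes then below the count filter. The genotype counts were 0 in each alternative that held both genotypes, with the replicate number in place of the mouse as the block. The causes of these shifts were not tested. Low counts limit Bmp8a, Gdf15, Inha and Bmpr1b in iBAT, and Bmp8b in the white depots.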
